A study of Mus musculus with 10 samples.

Results

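The genes described here are the G protein-coupled receptors that read extracellular nucleotides, adenosine, lipid mediators, protons and amines, together with the adhesion receptors and the Gpr-named genes, in mouse bone marrow-derived dendritic cells. Members were the genes whose symbol begins with Gpr and a digit, Adgr, P2ry, Ptger, S1pr, Lpar, Adora, Hrh or Adrb, and whose expected counts (estimated reads per gene) summed to at least 60 over the 6 RNA libraries. By this rule 61 of the 41813 genes in the tables were members, out of 138 whose symbol matched. Members were thus chosen by their summed expected count, which describes their level and carries no test. The nearest genes outside it were Adgrl1 with a sum of 59.11 and Gpr153 with 58, and the nearest inside were Gpr155 with 84 and Adgrg3 with 97.

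Receptors of this class are membrane proteins that pass an outside signal to heterotrimeric G proteins. Gs-coupled receptors raise cAMP, Gi-coupled receptors lower it, Gq-coupled receptors release calcium, and receptors coupled to G12 or G13 act on the cytoskeleton. In dendritic cells, extracellular ATP, adenosine, prostaglandin E2, lysophospholipids and oxysterols act through such receptors on migration, cytokine release and maturation.

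The 3 activated and 3 non-activated RNA libraries came from cells recorded as CD11c+ with high MHC class II. According to the series design, both groups were incubated with the bacterial TLR4 ligand LPS; the psDCs were pulsed with the ovalbumin peptide OVA323-339 and the nsDCs were not, and both were cocultured for 24 h with CD4+ OT-II T cells, which recognise that peptide. The labels of the samples instead tie LPS to the activated group alone and call the other group not stimulated; which description holds was not settled. The names activated and non-activated follow the sample titles; no strain, sex or age is given in the labels. Whether the replicates were separate animals or cultures is not stated, and the p-values therefore measure the spread between these libraries, which may be technical.

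Libraries held 21338012 to 27404937 expected counts. The receptor genes together took 0.286, 0.298 and 0.289% of the counts in activated replicates 1 to 3, against 0.300, 0.315 and 0.314% in non-activated replicates 1 to 3. All 8 dendritic cell markers were above 1 CPM in some library and summed to 10064 to 14405 CPM in activated libraries against 13049.6 to 15636 CPM in the non-activated ones; Itgax, which encodes CD11c, stood at 323 ± 122 CPM in activated cells against 346 ± 79.1 in non-activated cells (SD, n = 3 each). The summed level of 14 T cell markers was 154, 35.4 and 33.6 CPM in activated replicates 1 to 3, against 128, 50.2 and 44.8 CPM in non-activated replicates 1 to 3. The T cell receptor gene Trbc2 stood at 107, 1.42 and 1.88 CPM in activated replicates 1 to 3. In non-activated replicates 1 to 3 it stood at 106, 0.504 and 0.689 CPM. Trbc2 was most of the excess in activated replicate 1. In non-activated replicate 1 it was more than the whole excess. The other T cell markers together were thus lower there than in non-activated replicates 2 and 3. The summed level of the 4 NK cell markers was at most 0.558 CPM and that of the 6 neutrophil markers at most 0.441 CPM in any library, with 1 gene of each of these lists at 0 in every library. The 5 B cell markers summed to 2.08 to 3.14 CPM in activated and 0.457 to 0.730 CPM in non-activated libraries, the 5 mast cell and basophil markers to 21.8 to 40.8 and 64.3 to 71.8 CPM, and the 6 macrophage and monocyte markers to 873 to 1111 and 982 to 1280.4 CPM. Within these lists some single markers differed in edgeR (adjusted p from 2.07e-05 to 0.0454). Of 6 tested T cell markers 2 were higher, Lck (log2 2.13 ± 0.29) and Zap70 (2.95 ± 0.85), and the 1 tested B cell marker, Cd79b, was higher (3.82 ± 0.64, from 137 counts in the activated and 10 in the non-activated libraries). Cd79b passed the count filter only through the activated group, and the other 4 B cell markers were not tested. Of the 8 dendritic cell markers Irf4 (1.30 ± 0.08) and Zbtb46 (1.00 ± 0.15) were higher. The other 6 did not pass and had log2 fold changes below 0, and the median of the 8 was -0.083. Of the 6 macrophage and monocyte markers 2 were lower, 1 of them at least 2-fold, and the other was Fcgr1 (-0.50 ± 0.16). Kit, which held nearly all of the mast cell and basophil sum, was lower (-1.05 ± 0.20). The part of any other cell type in the receptor values was not tested. In such bulk samples, fewer cells of a type and less RNA per cell cannot be told apart.

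Upstream sequences are shown for 6 members: the neighbouring pairs Gpr183 with Gpr18 and P2ry12 with P2ry13, all higher in activated cells, and the proton-sensing receptors Gpr4 and Gpr65, which moved in opposite directions. Each is the 250 bases before the RefSeq transcript start on GRCm38.p6, read on the gene's own strand, and capitals mark a match to a motif named below.
Gpr183 (chr14:121965194-121965443, minus strand): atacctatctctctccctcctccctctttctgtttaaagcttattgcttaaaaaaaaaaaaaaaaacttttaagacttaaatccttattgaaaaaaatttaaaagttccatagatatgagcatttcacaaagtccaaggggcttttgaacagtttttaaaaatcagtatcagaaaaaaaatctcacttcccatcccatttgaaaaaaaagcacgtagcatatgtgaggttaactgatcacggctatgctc
Gpr18 (chr14:121915889-121916138, minus strand): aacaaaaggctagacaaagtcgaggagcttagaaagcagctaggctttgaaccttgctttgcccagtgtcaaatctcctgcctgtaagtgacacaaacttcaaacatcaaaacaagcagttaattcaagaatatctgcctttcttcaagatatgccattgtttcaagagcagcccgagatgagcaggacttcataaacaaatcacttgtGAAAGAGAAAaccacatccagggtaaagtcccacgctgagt
P2ry12 (chr3:59262986-59263235, minus strand): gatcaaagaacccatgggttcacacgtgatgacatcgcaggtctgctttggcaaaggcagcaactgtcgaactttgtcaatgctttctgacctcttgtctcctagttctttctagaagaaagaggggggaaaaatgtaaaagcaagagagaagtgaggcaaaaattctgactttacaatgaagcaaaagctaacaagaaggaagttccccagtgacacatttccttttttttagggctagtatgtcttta
P2ry13 (chr3:59210883-59211132, minus strand): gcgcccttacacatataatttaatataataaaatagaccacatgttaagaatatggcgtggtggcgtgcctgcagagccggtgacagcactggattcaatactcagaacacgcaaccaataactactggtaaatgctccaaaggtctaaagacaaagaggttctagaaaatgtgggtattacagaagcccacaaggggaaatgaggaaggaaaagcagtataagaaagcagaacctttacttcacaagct
Gpr4 (chr7:19212288-19212537, plus strand): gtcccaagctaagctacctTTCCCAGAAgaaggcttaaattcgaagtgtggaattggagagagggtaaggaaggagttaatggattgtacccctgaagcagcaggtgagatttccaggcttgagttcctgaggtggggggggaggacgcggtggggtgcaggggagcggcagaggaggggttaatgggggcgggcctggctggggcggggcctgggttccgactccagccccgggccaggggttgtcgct
Gpr65 (chr12:98268385-98268634, plus strand): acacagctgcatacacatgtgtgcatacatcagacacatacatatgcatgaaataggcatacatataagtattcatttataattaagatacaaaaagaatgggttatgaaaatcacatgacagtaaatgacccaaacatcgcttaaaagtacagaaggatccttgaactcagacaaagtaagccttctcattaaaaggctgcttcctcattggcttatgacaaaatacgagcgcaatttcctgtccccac
The motifs searched, on both strands, were AP-1 (TGANTCA), CRE (TGACGTCA), GAS (TTCNNNGAA), ISRE (GAAA, any 2 bases, GAAA), PU.1 (GAGGAAGT) and the NF-kappaB consensus. Gpr18 held 1 ISRE match, at position -41 from the start, and Gpr4 held 1 GAS match, at -231; the other 4 sequences held none of the 6 motifs. Windows were on hand for 49 of the 61 members, 13 of those higher, 8 of those lower and 28 of those that did not pass. An ISRE match occurred in 2.98% of all 32851 promoter windows of this length and in 1 of the 13 higher and 0 of the 8 lower members. GAS matched 7.02% of all windows, and 1 and 1 of those members. For AP-1 the share was 6.75% (1 of 13, Adgrg1, and 0 of 8), for PU.1 2.44% (2 and 1), for CRE 1.55% and for NF-kappaB 3.90% (0 of either group for both). Among the 28 members that did not pass, AP-1 matched 8, PU.1 4, GAS, ISRE and NF-kappaB 2 each and CRE 1. A match describes letters in this window and is not a binding site.

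Between activated and non-activated cells some receptor genes rose, some fell and most did not pass the test. Of the 61 members, all of which passed the filter on low counts, 14 were higher, 10 were lower and 37 did not reach the threshold, an adjusted p under 0.05 by the quasi-likelihood test of edgeR. Over all 13946 tested genes 27.6% were called, 15.9% higher and 11.7% lower, against 39.3% of the members (22.95% and 16.4%). The median log2 fold change was -0.04 over the members and 0.0064 over all tested genes. At least a 2-fold change was seen in 9 of the higher and 3 of the lower members, where 6.3% and 2.65% of all tested genes met those rules. This test took the libraries as unpaired, although same-numbered libraries deviated alike from their group means. With the replicate number as a block, 15 members were higher and 16 lower, beside 2787 and 2397 of all 13946 tested genes. The number lower was 6 without non-activated replicate 1, 6 without non-activated replicate 3, and 5 when limma was run on the deposited TPM. All tested genes lower also fell in these fits, from 1632 of 13946. They were 1182 of 14260 and 1093 of 14361 without those libraries, and 1132 of 13946 on log2(TPM + 1). Without both replicate 1 libraries, those whose T cell marker sum was raised by Trbc2, 14 members were higher and 10 lower. In that fit 1810 of 14027 tested genes were higher and 1464 lower. The 14 higher members were the same, but only 8 of the 10 lower ones were. P2ry1 and Gpr132 lost their calls there, while P2ry10 and Adgrg6 were called lower.

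**Figure D1:**
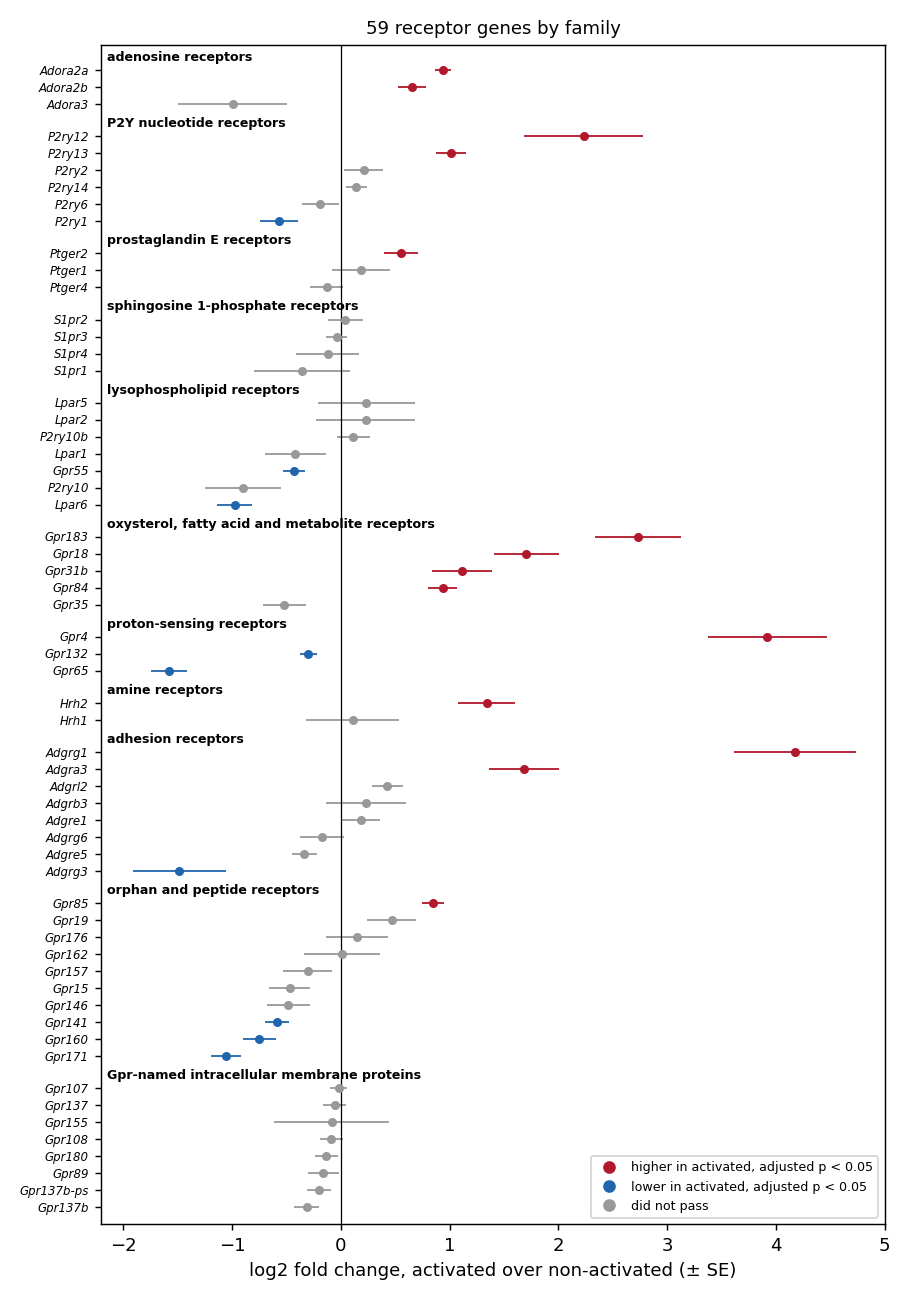
Log2 fold change of activated over non-activated cells for 59 of the 61 receptor genes, ordered by family, with bars of 1 SE (edgeR, n = 3 each). Red points are higher and blue points lower at an adjusted p under 0.05, and grey points did not pass; Adgrg1 at 4.18 and Gpr65 at -1.57 are the ends of the called range.

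Per length and library size, in TPM, the receptor genes spanned several orders of level. The 4 members with a mean of at least 100 TPM over the 6 libraries were P2ry14, Adgre1, Gpr132 and Adora2a, and 9 of the 61 were under 1 TPM. P2ry14, the receptor of UDP-glucose, stood at 333 ± 23.7 TPM in activated cells against 316 ± 33.8 TPM in non-activated cells (SD, n = 3 each). Adgre1, which encodes the macrophage antigen F4/80, stood at 315 ± 69.1 TPM in activated cells against 279 ± 53.05 TPM in non-activated cells. The ranges of these 2 genes overlapped, so their order is within their spread. Gpr132, a receptor of oxidised lipids also grouped with the proton sensors, came next with 157 ± 9.40 TPM in activated cells against 191 ± 18.7 TPM in non-activated cells, and the adenosine receptor Adora2a with 161 ± 12.7 TPM in activated cells against 87.5 ± 1.31 TPM in non-activated cells; in activated cells their means differed by less than either SD. Gpr65 was at 36.2 ± 8.24 TPM in activated cells against 109 ± 11.1 TPM in non-activated cells. Its place in the order therefore differed between groups: it was above Adora2a in non-activated cells and below both Adora2b and Gpr137b in activated cells.

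**Figure D2:**
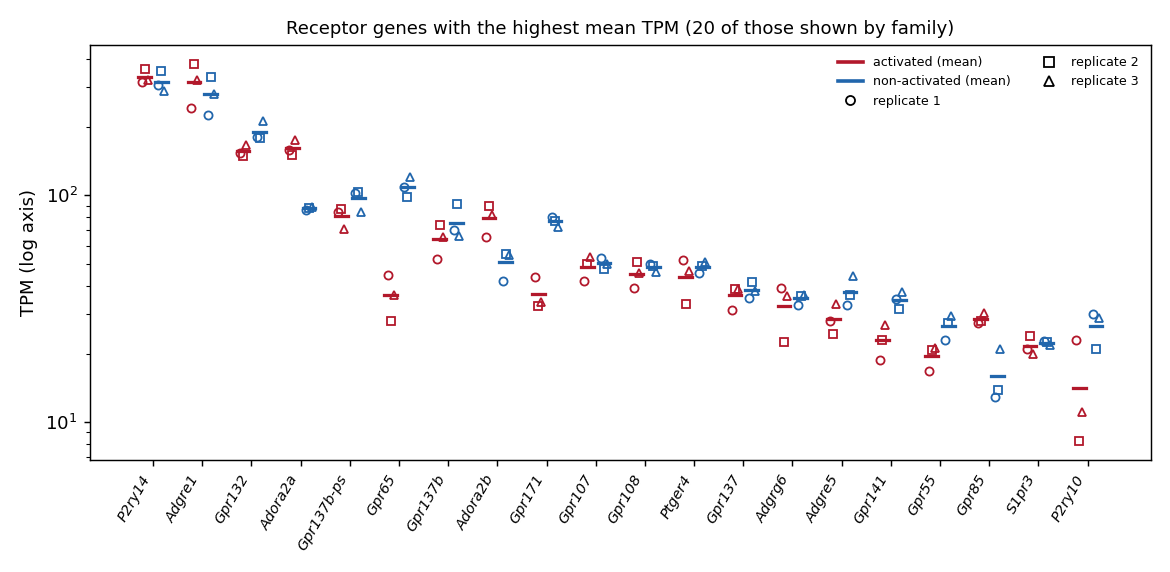
TPM by library for 20 receptor genes, those with the highest mean among the genes plotted by family, on a log axis, with activated libraries in red on the left and non-activated libraries in blue on the right of each gene; symbols mark the replicate and lines the group mean. P2ry14 and Adgre1 lie highest, and Adora2a, Gpr65 and Gpr171 show groups that do not overlap.

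Among adenosine receptors, both Gs-coupled members rose. Adora2a, through which adenosine raises cAMP in immune cells, had 245, 231 and 233 CPM in activated replicates 1 to 3, against 125, 127 and 119 CPM in non-activated replicates 1 to 3 (counts scaled to library size with TMM factors, as are all CPM values here). All activated libraries lay above all non-activated ones, and the gene was 1.92-fold higher (log2 0.94 ± 0.07, SE; edgeR adjusted p = 6.92e-05). Adora2b, its lower-affinity relative, averaged 89.7 ± 12.6 CPM in activated cells against 56.9 ± 6.89 in non-activated cells and was 1.58-fold higher (edgeR adjusted p = 0.00619). Adora3, a Gi-coupled receptor, had 0.186, 0.490 and 0.816 CPM in the activated libraries against 0.990, 0.840 and 1.14 CPM in the non-activated ones. Its activated values lay below the non-activated ones, but it rested on 35 counts in the activated and 74 in the non-activated libraries and did not pass (log2 -0.99 ± 0.50; edgeR adjusted p = 0.182). Of 10 tested genes that make, break down or carry nucleotides and adenosine, 1 was higher, 1 lower and 8 did not pass. Ada, which deaminates adenosine, averaged 2.71 ± 0.309 CPM in activated cells against 0.469 ± 0.225 in non-activated cells, 5.74-fold higher (edgeR adjusted p = 0.00162). Nt5e, which encodes CD73 and makes adenosine from AMP, was lower at 0.483, 0.392 and 0.327 CPM in the activated libraries against 3.73, 1.81 and 1.38 CPM in the non-activated ones (edgeR adjusted p = 0.00497), a call lost on the deposited TPM (limma adjusted p = 0.13; over the first fit and all alternatives, together called fits here, the adjusted p spanned 3.78e-05 to 0.13). Entpd1, or CD39, which breaks down ATP and ADP, did not pass at 92.6 ± 16.96 CPM in activated cells against 98.6 ± 18.9 in non-activated cells.

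P2Y receptors for nucleotides rose in 2 of 6 members, fell in 1 and did not pass in 3. P2ry13, an ADP receptor, had 16.2, 20.6 and 17.3 CPM in activated replicates 1 to 3, against 7.80, 9.58 and 9.41 CPM in non-activated replicates 1 to 3. Every activated library was above every non-activated one, a 2.02-fold difference (log2 1.01 ± 0.14; edgeR adjusted p = 0.00117). P2ry12, the ADP receptor of platelets and microglia, was far lower in level, with 0.929, 1.37 and 1.18 CPM in the activated libraries against 0.0761, 0.210 and 0.446 CPM in the non-activated ones, from 82 counts in the activated and 18 in the non-activated libraries. It passed the count filter mainly through the activated libraries, where all 3 cleared the filter's level against 1 of 3 non-activated ones. Its log2 fold change was 2.23 ± 0.55 (edgeR adjusted p = 0.0174) and 2.99 without non-activated replicate 3, and the call ended with activated replicate 2, activated replicate 3 or non-activated replicate 2 left out (adjusted p from 0.0527 to 0.0691, edgeR) and on log2(TPM + 0.1) (0.064 by limma; adjusted p across fits 0.0065 to 0.0691). P2ry1, a Gq-coupled ADP receptor, was lower at 6.84, 5.74 and 6.12 CPM in the activated libraries against 9.59, 7.44 and 10.7 CPM in the non-activated ones (log2 -0.56 ± 0.17; edgeR adjusted p = 0.0421). That call ended with activated replicate 2 or 3, with non-activated replicate 1 or 3, or with both replicate 1 libraries left out, and on TPM (adjusted p across fits 0.0173 to 0.145). The UDP-glucose receptor P2ry14 did not pass at 328 ± 26.9 CPM in activated cells against 297 ± 25.6 in non-activated cells (log2 0.14 ± 0.10). P2ry2, which reads ATP and UTP, and P2ry6, which reads UDP, had log2 fold changes of 0.21 ± 0.18 and -0.19 ± 0.17 and overlapping groups.

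Of 3 prostaglandin E2 receptors 1 rose and 2 did not pass. Ptger2, the Gs-coupled EP2 receptor, had 20.8, 27.3 and 30.7 CPM in activated replicates 1 to 3, against 15.8, 17.8 and 20.2 CPM in non-activated replicates 1 to 3. The groups did not overlap, though activated replicate 1 lay close to non-activated replicate 3, and the gene was 1.47-fold higher (log2 0.55 ± 0.16; edgeR adjusted p = 0.0321). The call ended with activated replicate 2 or 3, or with non-activated replicate 1 or 2, left out (adjusted p from 0.0822 to 0.111, edgeR) and on TPM (adjusted p across fits 0.00201 to 0.133). Ptger4, the EP4 receptor, which promotes dendritic cell migration, did not pass at 113, 70.6 and 94.5 CPM in the activated libraries against 99.5, 103 and 102 CPM in the non-activated ones (log2 -0.13 ± 0.15). Ptger1 did not pass either (6.77 ± 1.89 CPM in activated cells against 5.95 ± 1.54 in non-activated cells). Of 7 tested genes of prostaglandin E2 synthesis and removal, 4 were higher, 0 lower and 3 did not pass. Ptgs2, which encodes the inducible cyclooxygenase COX-2, had 2759, 2514 and 1749.9 CPM in the activated libraries against 881, 994 and 800.1 CPM in the non-activated ones, a 2.63-fold rise (edgeR adjusted p = 0.00078). Ptges, the inducible terminal synthase, was 2.33-fold, the phospholipase Pla2g4a 1.67-fold and the exporter Abcc4 1.64-fold higher (edgeR adjusted p = 0.00593, 0.00396 and 0.000557).

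None of the 4 sphingosine 1-phosphate receptors passed, and their log2 fold changes lay between -0.36 and 0.04. S1pr3 was the highest of the 4 per length, at 21.7 ± 2.06 TPM in activated cells against 22.4 ± 0.497 TPM in non-activated cells, followed by S1pr2 at 9.20 ± 3.14 TPM in activated cells against 11.2 ± 3.29 TPM in non-activated cells. S1pr1, which guides lymphocytes out of lymphoid tissue, had 5.02, 1.72 and 1.76 CPM in the activated libraries against 4.95, 3.07 and 2.96 CPM in the non-activated ones. Replicate 1 was highest in both groups, as it was for Trbc2 and the T cell marker sum given above. The groups overlapped (log2 -0.36 ± 0.44, edgeR adjusted p = 0.592). Without activated replicate 1 its log2 fold change was -1.09 (edgeR adjusted p = 0.0414), and without both replicate 1 libraries -0.81 (adjusted p = 0.116), with adjusted p across fits of 0.0414 to 0.93. S1pr4 was at 2.75 ± 0.751 CPM in activated cells against 2.99 ± 0.783 in non-activated cells.

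Lysophospholipid receptors fell in 2 of 7 members and rose in 0. Lpar6, a receptor of lysophosphatidic acid, had 19.9, 29.4 and 30.2 CPM in activated replicates 1 to 3, against 52.3, 57.7 and 46.1 CPM in non-activated replicates 1 to 3. All activated libraries were below all non-activated ones, at 0.509 times the non-activated level (log2 -0.98 ± 0.16; edgeR adjusted p = 0.00308). It lies inside Rb1, and without strand their reads cannot be told apart wherever they overlap; Rb1 was itself lower, at 50.9 CPM in activated cells against 74.7 CPM in non-activated cells, with a log2 fold change of -0.56 ± 0.08 (SE; edgeR adjusted p = 0.00197). Gpr55, a receptor of lysophosphatidylinositol, averaged 47.2 ± 4.78 CPM in activated cells against 63.4 ± 5.45 in non-activated cells (log2 -0.43 ± 0.10; edgeR adjusted p = 0.0157); the call ended with either of non-activated replicates 2 and 3 left out (adjusted p from 0.0579 to 0.0653, edgeR) and on TPM (adjusted p across fits 0.00136 to 0.0731). P2ry10, a receptor of lysophosphatidylserine despite its P2Y name, had 43.4, 15.01 and 19.3 CPM in activated replicates 1 to 3, against 57.02, 38.3 and 50.1 CPM in non-activated replicates 1 to 3. Activated replicate 1 lay within the range of the non-activated libraries while activated replicates 2 and 3 were lower, and the gene did not pass (log2 -0.90 ± 0.35; edgeR adjusted p = 0.0947). With the replicate number as a block the log2 fold change was -1.01 (edgeR adjusted p = 0.00312), without activated replicate 1 -1.52 (0.000957), with no filter it also passed (0.0124), and without both replicate 1 libraries it was -1.38 (adjusted p = 0.00132; adjusted p across fits 0.000957 to 0.244). Its paralog P2ry10b, 44 kb away on chromosome X, did not pass at 16.1 ± 2.46 CPM in activated cells against 14.8 ± 2.25 in non-activated cells. Lpar1, Lpar2 and Lpar5 did not pass, at 2.96, 0.784 and 0.791 CPM in activated cells against 3.95, 0.666 and 0.670 CPM in non-activated cells.

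Of 13 tested genes that make, break down or carry sphingosine 1-phosphate and lysophospholipids, 2 were higher, 2 lower and 9 did not pass. Pla1a, a phospholipase that releases lysophosphatidylserine, had 417, 407 and 322 CPM in the activated libraries against 54.97, 52.02 and 62.2 CPM in the non-activated ones, a 6.78-fold difference (log2 2.76 ± 0.13; edgeR adjusted p = 5.67e-06). Abhd12, which breaks that lipid down, was at 0.648 times the non-activated level (edgeR adjusted p = 0.00067). Plpp1, which dephosphorylates lipid phosphates, was 3.10-fold higher (edgeR adjusted p = 0.000398). The sphingosine 1-phosphate exporter Spns2 was lower at 2.34, 0.245 and 0.857 CPM in the activated libraries against 5.86, 3.99 and 7.05 CPM in the non-activated ones (edgeR adjusted p = 0.0225), a call that ended with activated replicate 3, or with non-activated replicate 1 or 3, left out (adjusted p from 0.0526 to 0.0803, edgeR), and on log2(TPM + 0.1) (0.0856 by limma; adjusted p across fits 0.000148 to 0.0856).

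**Figure D3:**
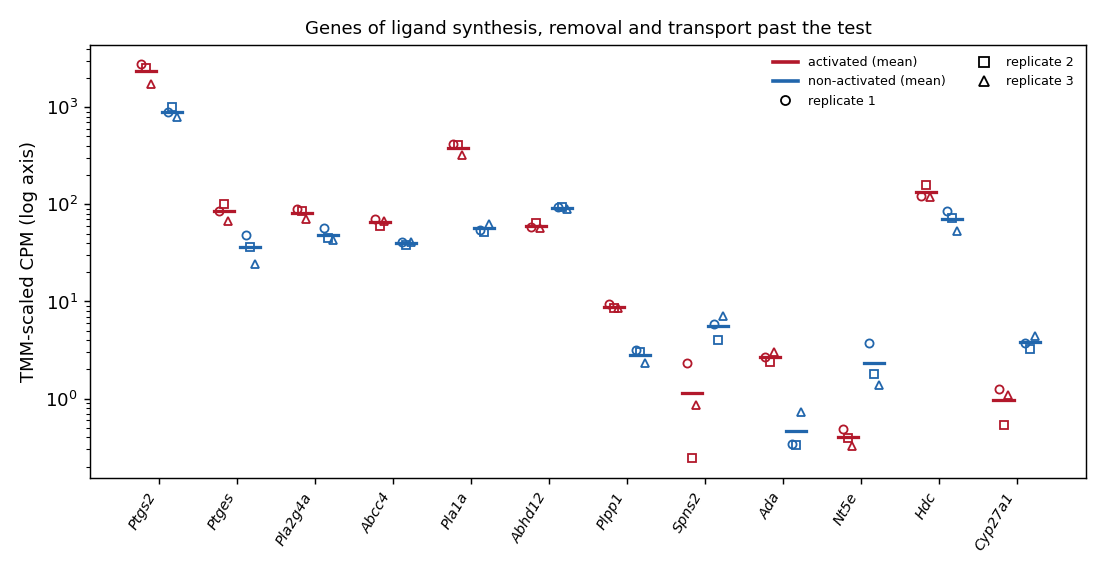
CPM by library, on a log axis, of 12 genes past the test that make, break down or carry the ligands, with activated libraries in red left of non-activated libraries in blue and lines at the group means. Pla1a and Ptgs2 lie higher, and Nt5e, Spns2 and Cyp27a1 lower, in all activated libraries.

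Receptors of oxysterols, fatty acids and metabolites rose in 4 of 5 members and fell in 0. Gpr183, also called EBI2, which binds oxysterols and positions dendritic cells and lymphocytes in lymphoid tissue, had 75.5, 55.9 and 30.3 CPM in activated replicates 1 to 3, against 11.8, 4.62 and 7.78 CPM in non-activated replicates 1 to 3. The lowest activated library exceeded the highest non-activated one, and the values within each group spread over more than 2-fold. It was 6.65-fold higher (log2 2.73 ± 0.39, SE; edgeR adjusted p = 0.00149), with a log2 fold change of 2.77 without both replicate 1 libraries. Gpr18, a receptor proposed to bind lipid amides, had 5.17, 4.17 and 3.88 CPM in activated replicates 1 to 3, against 1.37, 0.882 and 1.78 CPM in non-activated replicates 1 to 3. These groups did not overlap either (log2 1.71 ± 0.30; edgeR adjusted p = 0.0036). Gpr84, a receptor of medium-chain fatty acids induced in inflamed myeloid cells, was tight within groups, at 9.67 ± 0.166 CPM in activated cells against 5.05 ± 0.196 in non-activated cells, and 1.92-fold higher (edgeR adjusted p = 0.00142). Gpr31b, which senses pyruvate and lactate in mouse intestinal phagocytes, averaged 3.67 ± 0.863 CPM in activated cells against 1.69 ± 0.283 in non-activated cells (log2 1.12 ± 0.27; edgeR adjusted p = 0.0172). Its call ended with activated replicate 2 or 3, or with non-activated replicate 3, left out (adjusted p from 0.0517 to 0.0629, edgeR; adjusted p across fits 0.00533 to 0.0629). Gpr35, which responds to tryptophan metabolites, did not pass at 16.3 ± 4.09 CPM in activated cells against 23.4 ± 4.58 in non-activated cells (log2 -0.52 ± 0.20; edgeR adjusted p = 0.0857), but was lower in 4 of 14 alternatives: DESeq2 (adjusted p = 0.0408), no filter (0.0243), the replicate block (0.00235) and without activated replicate 3 (log2 -0.75; edgeR adjusted p = 0.027). Ch25h, which makes the precursor of the Gpr183 ligand, was at or under 0.932 CPM in every library and did not pass. Hsd3b7, which inactivates that ligand, did not pass at 60.9 ± 4.46 CPM in activated cells against 57.4 ± 3.74 in non-activated cells, and the sterol hydroxylase Cyp27a1 was lower at 1.26, 0.540 and 1.10 CPM in the activated libraries against 3.77, 3.24 and 4.42 CPM in the non-activated ones (edgeR adjusted p = 0.00339).

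Among proton-sensing receptors, Gpr4 rose while Gpr65 and Gpr132 fell. Gpr65, a Gs-coupled acid sensor of leukocytes, had 58.8, 36.1 and 45.4 CPM in activated replicates 1 to 3, against 144, 127 and 147 CPM in non-activated replicates 1 to 3. The lowest non-activated library was above the highest activated one by more than 2-fold, and the gene stood at 0.336 times the non-activated level (log2 -1.57 ± 0.16; edgeR adjusted p = 0.000301). Gpr4, known mainly from endothelial cells, was low in both groups but rose, with 3.01, 3.92 and 2.37 CPM in activated replicates 1 to 3, against 0.381, 0.168 and 0.0405 CPM in non-activated replicates 1 to 3. It rested on 219 counts in the activated and 15 in the non-activated libraries, and it passed the count filter only through the activated group (log2 3.92 ± 0.55; edgeR adjusted p = 0.00126). The log2 fold change was 4.84 without both replicate 1 libraries and 4.83 without non-activated replicate 1 alone. Gpr132 averaged 237 ± 11.4 CPM in activated cells against 292 ± 17.8 in non-activated cells, a log2 fold change of -0.30 ± 0.08 (edgeR adjusted p = 0.0277). This call ended with activated replicate 2, or with non-activated replicate 1 or 3, left out (adjusted p from 0.068 to 0.0975, edgeR), without both replicate 1 libraries (0.0568) and on TPM (adjusted p across fits 0.00653 to 0.0975).

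Of the histamine receptors, Hrh2 rose and Hrh1 did not pass. Hrh2, the Gs-coupled histamine receptor, had 3.53, 3.34 and 5.10 CPM in the activated libraries against 1.37, 1.81 and 1.54 CPM in the non-activated ones, 2.54-fold higher with no overlap (log2 1.34 ± 0.26; edgeR adjusted p = 0.00629), while Hrh1 did not pass at 1.57 ± 0.857 CPM in activated cells against 1.46 ± 0.390 in non-activated cells. Hdc, which makes histamine, was 1.89-fold higher at 133 ± 21.2 CPM in activated cells against 70.5 ± 16.4 in non-activated cells (edgeR adjusted p = 0.006).

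**Figure D4:**
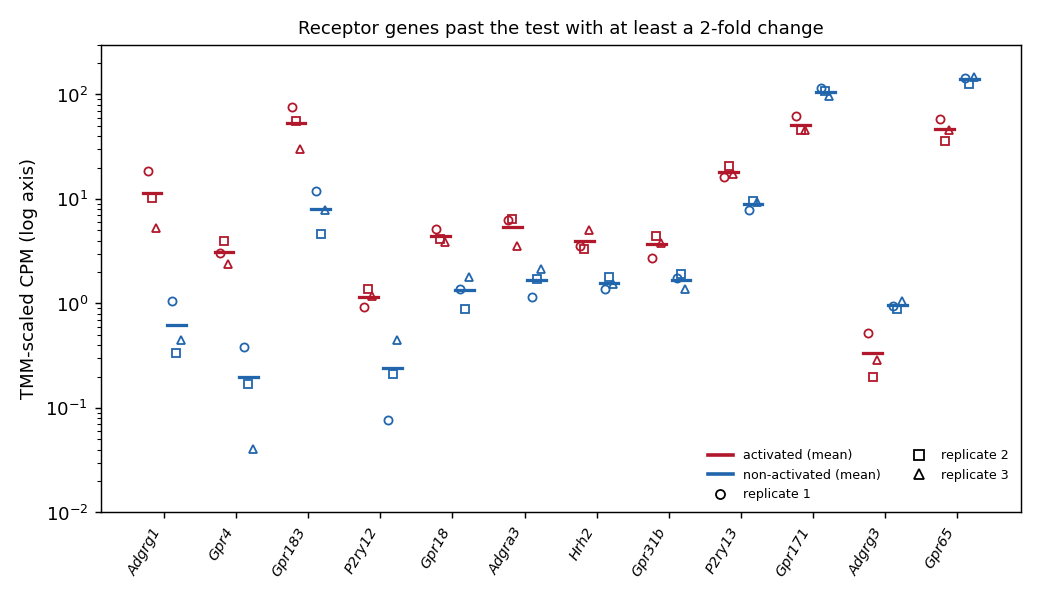
CPM by library, on a log axis, of the 12 receptor genes past the test with at least a 2-fold change, ordered from the highest log2 fold change to the lowest; activated libraries are red and left, non-activated libraries blue and right, and lines are group means. In each gene all 3 activated libraries lie on one side of all 3 non-activated ones. The genes were chosen by the test on these same libraries, so this separation is not further evidence.

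Of 8 adhesion receptors, which carry long extracellular domains that bind matrix or other cells, 2 rose, 1 fell and 5 did not pass. Adgrg1, also called GPR56, had 18.5, 10.2 and 5.31 CPM in activated replicates 1 to 3, against 1.07, 0.336 and 0.446 CPM in non-activated replicates 1 to 3. Its groups were separated in spite of a spread of several fold within each (log2 4.18 ± 0.56, and 4.84 without non-activated replicate 1; edgeR adjusted p = 0.00106), from 837 counts in the activated and 47 in the non-activated libraries. Adgra3 had 6.24, 6.38 and 3.51 CPM in the activated libraries against 1.14, 1.72 and 2.15 CPM in the non-activated ones (log2 1.68 ± 0.33; edgeR adjusted p = 0.00593). On the deposited TPM it averaged 2.62 ± 0.867 TPM in activated cells against 1.70 ± 2.10 TPM in non-activated cells and did not pass (log2 0.67; limma adjusted p = 0.376; adjusted p across fits 2.2e-05 to 0.376). Adgrg3, known from granulocytes, rested on 25 counts in the activated and 72 in the non-activated libraries, with 0.520, 0.196 and 0.286 CPM in the activated libraries against 0.952, 0.882 and 1.05 CPM in the non-activated ones (log2 -1.48 ± 0.43; edgeR adjusted p = 0.0344). It passed the filter mainly through the non-activated libraries, and its call was lost without any 1 library other than activated replicate 1 (adjusted p from 0.0836 to 0.106, edgeR), in DESeq2 (0.0603) and on TPM (adjusted p across fits 0.0217 to 0.106).

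Adgre1 did not pass, at 522, 799.6 and 646 CPM in activated replicates 1 to 3, against 488, 689 and 554 CPM in non-activated replicates 1 to 3. Replicate 1 was the lowest and replicate 2 the highest of each group (log2 0.19 ± 0.18). Adgre5, which encodes CD97, averaged 50.7 ± 7.31 CPM in activated cells against 63.9 ± 4.52 in non-activated cells; its groups did not overlap but it did not pass (edgeR adjusted p = 0.0635; 0.0127 with the replicate block, 0.0443 in DESeq2 and 0.0337 with no filter). Adgrl2, or latrophilin 2, averaged 42.1 ± 6.20 CPM in activated cells against 31.3 ± 4.81 in non-activated cells with an edgeR adjusted p of 0.0552; it passed, as higher, in 7 of 14 alternatives, among them DESeq2 (adjusted p = 0.038), limma on TPM (0.0349), the fits without activated replicate 3 (0.0431) or non-activated replicate 2 (0.0369) and the block (0.00176). Adgrg6 had 135, 72.98 and 88.6 CPM in the activated libraries against 105, 106 and 123 CPM in the non-activated ones and did not pass (log2 -0.17 ± 0.20), but without activated replicate 1 it was lower (log2 -0.48; edgeR adjusted p = 0.0184, and 0.0219 without both replicate 1 libraries; adjusted p across fits 0.0184 to 0.985). Adgrb3 was at most 1.67 CPM in every library.

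Orphan receptors and those with proposed peptide ligands fell in 3 of 10 members and rose in 1. Gpr171, an inhibitory receptor of lymphocytes, had 62.7, 45.5 and 45.5 CPM in activated replicates 1 to 3, against 116, 107 and 96.05 CPM in non-activated replicates 1 to 3. Each activated library was below each non-activated one (log2 -1.06 ± 0.14; edgeR adjusted p = 0.000983). Replicate 1 was the highest in each group; without both replicate 1 libraries the log2 fold change was -1.18 (edgeR adjusted p = 0.000172). Gpr85, an orphan receptor conserved among vertebrates and best known from brain, had 37.1, 36.4 and 37.3 CPM in activated replicates 1 to 3, against 18.6, 19.5 and 23.4 CPM in non-activated replicates 1 to 3, a 1.80-fold rise (edgeR adjusted p = 0.00064). Gpr141, an orphan receptor found in myeloid cells, averaged 41.7 ± 3.92 CPM in activated cells against 62.6 ± 7.60 in non-activated cells (log2 -0.59 ± 0.11; edgeR adjusted p = 0.00552). Gpr160 was lower at 6.73 ± 0.755 CPM in activated cells against 11.3 ± 1.34 in non-activated cells (log2 -0.75 ± 0.15; edgeR adjusted p = 0.00745), a call lost on TPM (limma adjusted p = 0.0617; adjusted p across fits 0.000532 to 0.0617). The other 6 did not pass: Gpr15, a homing receptor of T cells (11.4 ± 2.75 CPM in activated cells against 15.9 ± 2.42 in non-activated cells), Gpr19, Gpr146, Gpr157, Gpr162 and Gpr176. The last 5 had log2 fold changes of 0.47 ± 0.23, -0.48 ± 0.20, -0.30 ± 0.22, 0.01 ± 0.35 and 0.15 ± 0.29. Gpr146 had an edgeR adjusted p of 0.105, and 0.0231 with the replicate block, 0.0464 in DESeq2 and 0.0243 with no filter; for Gpr157 these were 0.355 and 0.0299. Gpr15 passed without activated replicate 3 (edgeR adjusted p = 0.0194) and with no filter (0.0472; adjusted p across fits 0.0194 to 0.283), and Gpr146 without activated replicate 2 (0.0375; adjusted p across fits 0.0231 to 0.248).

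The 8 remaining Gpr-named members are known mainly as membrane proteins of the Golgi, lysosome or other compartments rather than as classical receptors. None passed: all 8 log2 fold changes were below 0, with a median of -0.11, beside 6878 of all 13946 tested genes below 0. The direction of Gpr107, Gpr108, Gpr137 and Gpr155 turned in some alternatives. Gpr107 averaged 113 ± 5.67 CPM in activated cells against 114 ± 4.73 in non-activated cells and Gpr108 58.8 ± 7.26 CPM in activated cells against 62.4 ± 5.12 in non-activated cells. Gpr137b, a lysosomal protein, had 80.8 ± 7.24 CPM in activated cells against 100.4 ± 12.99 in non-activated cells (edgeR adjusted p = 0.075). It passed, as lower, in 6 of 14 alternatives: upper quartile factors (adjusted p = 0.0481), DESeq2 (0.0408), no filter (0.0334), the replicate block (0.0152), and without activated replicate 2 (0.0486) or non-activated replicate 3 (0.0309). Its transcribed pseudogene Gpr137b-ps had 80.2 ± 7.71 CPM in activated cells against 91.9 ± 10.4 in non-activated cells; reads shared by such copies are split in fractions by the counting, so both levels are uncertain. Gpr155, at 0.554 ± 0.277 CPM in activated cells against 0.587 ± 0.228 in non-activated cells, was the lowest of the 8, and Gpr89, Gpr137 and Gpr180 had log2 fold changes of -0.16 ± 0.14, -0.06 ± 0.10 and -0.13 ± 0.10.

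Several members are neighbours in the genome, on GRCm38 coordinates from RefSeq. Gpr171, P2ry14, P2ry13 and P2ry12 lie within 167 kb of chromosome 3 (59096448 to 59262985), overlapping Med12l. Along that stretch Gpr171 fell, P2ry14 did not pass, and P2ry13 and P2ry12, 5.4 kb apart, rose, with the values given above. Med12l did not pass, at 1.54 ± 0.414 CPM in activated cells against 2.82 ± 0.953 CPM in non-activated cells (log2 -0.88 ± 0.34, SE). On chromosome 14, Gpr18 (121911434 to 121915888) and Gpr183 (121952331 to 121965193) are 36.4 kb apart within Ubac2, and both rose while Ubac2 did not pass (log2 -0.17 ± 0.09). On chromosome 8, Adgrg1 (94974756 to 95014208) rose and Adgrg3 (95017113 to 95045250), 2.9 kb away, fell. P2ry6 and P2ry2, 21.1 kb apart on chromosome 7, did not pass. In all, 35 of the 61 members overlap another RefSeq gene, and 15 of the 24 called members do. These overlaps are of whole gene spans, and whether the pairs share exons was not tested. The libraries are not stated to keep strand, so reads cannot be told apart where the transcripts of such a pair share sequence.

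**Figure D5:**
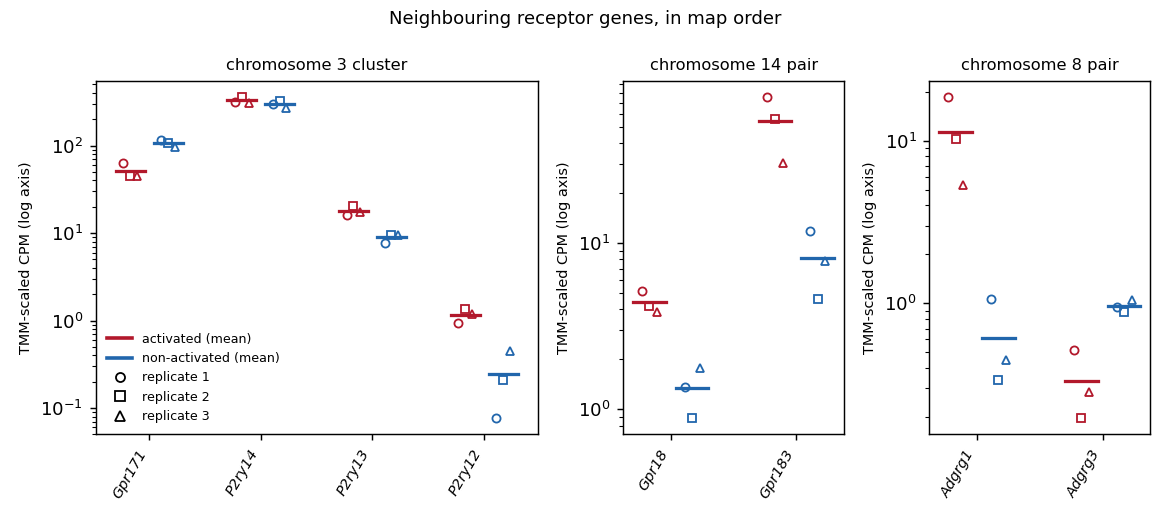
CPM by library, on log axes that differ between panels, of the receptor genes of the chromosome 3 cluster, the chromosome 14 pair and the chromosome 8 pair, in map order within each panel; activated libraries are red and left, non-activated libraries blue and right, and lines are group means. Gpr171 lies lower and P2ry13 and P2ry12 higher in activated cells, with P2ry14 between them overlapping; Gpr18 and Gpr183 both lie higher, and Adgrg1 higher beside Adgrg3 lower.

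Among genes that carry or stop receptor signals more were lower than higher: 3 of 53 tested genes were higher and 14 lower over the 3 lists of G proteins, their regulators and cAMP. In the 4 lists of ligand handling genes, 8 of 34 were higher and 4 lower. Over all 8 lists of pathway genes, which also hold 11 tested receptors with other names, 13 of 98 tested genes were higher and 20 lower, a median log2 fold change of -0.12 beside 15.9% and 11.7% of all tested genes. With the replicate block 17 of the 98 were higher and 32 lower, beside 2787 and 2397 of all 13946 tested genes. Of 14 tested RGS proteins, receptor kinases and arrestins, 6 were lower and 1 higher, with a median log2 fold change of -0.41. Rgs2, which speeds the shut-off of Gq, had 21.04, 18.4 and 17.8 CPM in activated replicates 1 to 3, against 56.7, 61.6 and 47.5 CPM in non-activated replicates 1 to 3 (log2 -1.53 ± 0.12; edgeR adjusted p = 6.96e-05). Rgs3 was at 0.360, the receptor kinase Grk3 at 0.654 and Arrb2, or beta-arrestin 2, at 0.642 times the non-activated level (edgeR adjusted p = 0.00129, 0.00207 and 0.00177). The kinase that rose was Grk2, 1.35-fold (edgeR adjusted p = 0.00462; adjusted p across fits 2.35e-05 to 0.0611, the call being lost on TPM).

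In the cAMP list 5 of 17 tested genes were lower and 0 higher. Crem, a cAMP-responsive transcription regulator, had 27.4, 25.3 and 24.5 CPM in activated replicates 1 to 3, against 67.99, 67.2 and 63.4 CPM in non-activated replicates 1 to 3; the groups were far apart next to their spread (log2 -1.36 ± 0.08; edgeR adjusted p = 1.91e-05). The protein kinase A subunits Prkar2a and Prkaca were at 0.546 and 0.777 times the non-activated level, and the cAMP phosphodiesterase Pde4d at 0.498 times (edgeR adjusted p = 0.000122, 0.00951 and 0.00246). Among 22 tested G protein subunits, 2 rose and 3 fell. Gng4, a gamma subunit, had 48.1, 57.8 and 27.9 CPM in the activated libraries against 5.82, 10.7 and 8.64 CPM in the non-activated ones, 5.32-fold higher (edgeR adjusted p = 0.000678), and the beta subunit Gnb1 was 1.27-fold higher (edgeR adjusted p = 0.0109; 0.0539 without non-activated replicate 3, with adjusted p across fits of 0.000286 to 0.0539). The subunits Gna13, Gna15 and Gnb3 were lower (log2 -0.33 ± 0.09, -1.20 ± 0.32 and -2.62 ± 0.69), each losing its call without non-activated replicate 1 or 2, or both replicate 1 libraries, among others (edgeR adjusted p up to 0.0864, 0.0834 and 0.0879 across fits). Gnb3 rested on 7 counts in the activated and 46 in the non-activated libraries and passed the filter through the non-activated group. Without activated replicate 3 Gna13 and Gnb3, and without activated replicate 2 Gna15, also lost theirs (edgeR adjusted p = 0.0556, 0.065 and 0.0579). The Gi subunit Gnai2 and the Gs subunit Gnas did not pass, at 739 ± 40.9 CPM in activated cells against 717 ± 12.99 in non-activated cells, and 494 ± 82.4 CPM in activated cells against 552 ± 53.5 in non-activated cells.

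Of 11 tested lipid, nucleotide and metabolite receptors with other names, 2 were higher and 2 lower. P2rx1, an ATP-gated channel, had 4.20, 4.90 and 2.57 CPM in activated replicates 1 to 3, against 0.0381, 0.294 and 0.0811 CPM in non-activated replicates 1 to 3, from 276 counts in the activated and 10 in the non-activated libraries. It passed the count filter only through the activated group, and its log2 fold change of 4.80 ± 0.56 (edgeR adjusted p = 0.000537) was 5.92 without non-activated replicate 2. Hcar2, the niacin receptor, averaged 29.95 ± 6.67 CPM in activated cells against 18.7 ± 2.22 in non-activated cells (edgeR adjusted p = 0.017; 0.0701 without non-activated replicate 3, with adjusted p across fits of 0.00162 to 0.0701). The cysteinyl leukotriene receptor Cysltr1 was lower at 2.36 ± 0.388 CPM in activated cells against 6.33 ± 0.283 in non-activated cells, and the cannabinoid receptor Cnr2 at 8.07 ± 1.98 CPM in activated cells against 15.4 ± 2.85 in non-activated cells (edgeR adjusted p = 0.00118 and 0.0113).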

How the data were processed

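RNA of 3 activated and 3 non-activated samples was used; the 4 ATAC-seq samples were not analysed here. A NEBNext Ultra kit took 200 ng of RNA, and single reads had 60 bases, per the labels' protocols. Per the file headers, the authors deposited for each gene an expected count, in the layout of RSEM, which splits reads with several matches in fractions, along with TPM, FPKM (not used) and gene lengths. The submitters' processing notes name GRCm38; the RNA aligner was not given in the sources used here. Gene symbols were joined by gene ID for 41597 of 41813 genes.

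Expected counts were rounded, and the test was that of edgeR 4.0.16 (R 4.3.3; filterByExpr by group, TMM, glmQLFit, glmQLFTest, group only, Benjamini-Hochberg over all 13946 tested genes, threshold 0.05). The SE is the log2 fold change over the root of F. The common biological coefficient of variation was 16.9%, which exceeds the counting error of all but the low genes, and every pair of libraries differed by more than sampling noise (chi-square at least 15.2 times its degrees of freedom). Alternatives were other size factors, DESeq2 1.42.0, no filter, limma 3.58.1 on log2(deposited TPM + 1) or + 0.1, a replicate block and leaving out each library. Leaving out both replicate 1 libraries was added after seeing their T cell marker sum, which Trbc2 raised. Deviations from group means correlated at 0.40, 0.31 and 0.19 for same-numbered libraries and -0.31 to 0.04 for the others. Same-numbered libraries thus deviated alike, least so for replicate 3. The sample titles state no pairing, and whether the numbers pair the libraries was not tested. The first fit, which gave the calls named here, did not use the replicate number, and the replicate block did.

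The members and gene lists were chosen with earlier results of these data known. In all, 2 members are not reported here by name. The others follow a rule: those past the threshold at 2-fold by library, other called members by mean or library, uncalled ones from 20 CPM or within their family, and from each pathway list up to 4 genes a direction with the smallest adjusted p; Entpd1, Ch25h, Hsd3b7, Gnai2, Gnas and the markers past the test were named after their values were seen. Sequences and positions are RefSeq's on GRCm38.p6.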

Additional observations from a re-analysis of the deposited data

How the results depend on the processing

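The count of receptor genes higher in activated cells, 14, stayed within 1.5 times under every alternative run (11 to 14 when 1 library was left out), while the 10 lower varied: 16 with no low-count filter, 16 with the replicate block, 5 and 5 on log2(TPM + 1) and log2(TPM + 0.1), and 6 to 13 when 1 library was left out. Pathway genes lower were 32 with the block, against 20. All tested genes lower, 1632, were 2397 with the block and ranged over 1061 to 1673 when 1 library was left out. They were 1855 of 23554 with no low-count filter, and 1132 and 1121 of 13946 on log2(TPM + 1) and log2(TPM + 0.1). The block turned no direction of a called gene and ended no call named here. A minimum summed count of 30 or 120 would give 77 or 55 members. The cause of lost and gained calls was not tested. Directions turned only in members that did not pass. The log2 fold changes with 1 library left out spanned 0 for Adgrb3 (-0.0158 to 0.53), Gpr107 (-0.0746 to 0.0102), Gpr137 (-0.13 to 0.0184), Gpr155 (-0.45 to 0.26, also 0.10, also 0.0735), Gpr162 (-0.21 to 0.30, also -0.15, also -0.12), Gpr176 (-0.0921 to 0.38), Hrh1 (-0.42 to 0.37, also -0.0792), Lpar2 (-0.10 to 0.48, also -0.0233), Lpar5 (-0.15 to 0.51), P2ry10b (-0.00913 to 0.22), Ptger4 (-0.31 to 0.0187), S1pr2 (-0.0761 to 0.20, also -0.0611), S1pr3 (-0.13 to 0.0264, also 0.00255) and S1pr4 (-0.37 to 0.11, also 0.00747). Under other settings the direction turned for Gpr108 0.0243 (without both replicate 1 libraries), Gpr137 0.00536 (without both replicate 1 libraries), Gpr162 -0.00477 (DESeq2 size factors), Gpr162 -0.0124 (upper quartile factors), Gpr162 -0.00593 (DESeq2), Gpr162 -0.0174 (no low-count filter), Gpr162 -0.0409 (replicate block), Gpr162 -0.0543 (limma on log2(TPM + 1)), Gpr162 -0.15 (limma on log2(TPM + 0.1)), S1pr2 -0.27 (limma on log2(TPM + 1)) and S1pr2 -0.30 (limma on log2(TPM + 0.1)). Low members such as P2ry12, Adgrg3 and Gpr155 rest on under 30 counts a library, which limits what can be seen in them.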
